A study of Mus musculus with 7 samples.

Results

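The mesenchyme that neural crest forms in the pharyngeal arches was followed from E9.5 to E10.5 in mouse embryos labelled Tbx1 null, by droplet single-cell RNA sequencing of cells sorted for a Wnt1-Cre;ROSA-EGFP lineage reporter. Cells were chosen by their counts of unique molecular identifiers (UMIs, each standing for 1 captured RNA molecule). A cell had to hold at least 1000 genes, at most 10% mitochondrial UMIs, at least 3 UMIs of Twist1, Prrx1 and Prrx2 together, 0 UMIs of Sox10, and at least 1 UMI of Hoxa2, Hoxb2, Hoxa3, Hoxb3 or Hoxd3. These gates left 6144 of the 29141 barcodes of the 3 Tbx1 null libraries, in a series of 65862 barcodes. They were 1947 cells of the only E9.5 library, 2666 of replicate 1 and 1531 of replicate 2 at E10.5. Counts were summed per library over these cells, and levels are given as CPM, the UMIs of a gene over the UMIs of the library in a common unit, scaled with the trimmed mean of M-values (TMM). A summed level does not tell more cells with a gene from more RNA per cell.

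All embryos were of a mixed Swiss-Webster background and carried Wnt1-Cre, which is active in the dorsal neural tube and its crest, and 1 copy of a Cre-dependent EGFP reporter. The sort therefore also kept EGFP-positive cells that are not crest mesenchyme, such as neural tube cells. The comparison group carried the same driver and reporter with no Tbx1 mutation in its genotype label (Wnt1-Cre/+;ROSA-EGFPf/+), with 1 library at E9.5 and 2 at E10.5. For the null libraries the sample titles say Tbx1 null, while the genotype label reads Wnt1-Cre/+;Tbx1+/-;ROSA-EGFPf/+, which names a heterozygote. The study's text describes null embryos, and its supplement lists these libraries as Wnt1-Cre/+;Tbx1-/-;ROSA-EGFPf/+. They are called Tbx1 null here after their titles. Each library is a pool of embryos, so that p-values measure only the spread between these pools. The E9.5 dissection held the first pharyngeal arch and the E10.5 dissection left it out, while both held the heart and neural tube. For the controls, the study's supplement also lists more caudal arches at E10.5 than at E9.5. Stage and dissected tissue thus cannot be told apart. The null E9.5 library and null replicate 1 were made with kit version 3, and null replicate 2 and the controls with version 3.1.

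Cranial neural crest leaves the dorsal neural tube, fills the pharyngeal arches and forms their skeleton, connective tissue and, from the caudal arches, the smooth muscle of the arch arteries and the septum of the outflow tract. Hox genes record the level from which the cells came: first arch crest lacks them, second arch crest expresses Hox group 2 genes, and more caudal crest adds group 3 and then groups 4 and 5. Tbx1 encodes a T-box factor of the pharyngeal mesoderm and epithelia, with little expression in crest, and embryos without it fail to form normal caudal arches.

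The 6 libraries at E9.5 and E10.5 held 7922 to 12047 barcodes and 146254671 to 234844769 UMIs, and the cells of the null gate had medians of 23146, 25686 and 22602 UMIs. Pairs of libraries shared 17 to 44 barcodes. Tbx1 itself was at 2.81 CPM at E9.5 and 6.44 and 6.98 CPM in replicates 1 and 2 at E10.5 in the null gate, and at 2.01, 8.59 and 5.92 CPM in the control libraries in the order E9.5, E10.5 replicate 1, E10.5 replicate 2. The null libraries thus held Tbx1 UMIs at levels near those of the controls. Which bases the null allele lacks is not given in the sources used here, and 3' counts outside the deleted part would check nothing. The sexes in the pools differed: the Y-linked gene Ddx3y had 0 UMIs in null replicate 2 against 12.6 CPM in the E9.5 library and 10.7 CPM in replicate 1, and Xist was at 0.0304 CPM in control E9.5 against 238 to 644 CPM in the other 5 libraries.

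Twist1, Hoxa2 and Hoxa3 were present in all 3 null libraries. Twist1, a basic helix-loop-helix factor of mesenchyme, was at 804, 551 and 286 CPM in the E9.5 library, replicate 1 and replicate 2, the order kept below for null values. Hoxa2, which patterns the second arch, was at 70.0, 90.3 and 66.0 CPM, and Hoxa3, a gene of the third arch, at 13.7, 38.9 and 33.9 CPM. These values only describe the gate. The Hox gate mattered most at E9.5: of the cells that passed the other gates, 32.1% passed it there, against 94.3% in replicate 1 and 96.0% in replicate 2, and 4112 E9.5 cells against 162 and 63 E10.5 cells had 0 UMIs of its 5 Hox genes. Just inside the gate, 420, 120 and 116 cells had exactly 1 such UMI. On the mesenchymal gate, 138, 185 and 181 cells had exactly 3 UMIs of Twist1, Prrx1 and Prrx2, and 262, 386 and 457 cells that met the other rules fell just outside with 2.

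The 2 null E10.5 libraries differed in their mesenchyme by more than counting error. By the study's somite numbers, the embryos of replicate 2 were further along than those of replicate 1. Their sex mix differed as well, with 859 UMIs of Ddx3y in replicate 1 and 0 in replicate 2. Age, kit version, sex and pool thus cannot be told apart between these replicates. With each cell thinned to 5000 UMIs, the share of gate cells with a UMI of a Hox group 3 gene (Hoxa3, Hoxb3 or Hoxd3) was 15.3% at E9.5, 39.9% in replicate 1 and 49.0% in replicate 2, and for Hox groups 4 and 5 it was 10.1% at E9.5, 25.8% in replicate 1 and 47.1% in replicate 2. Exact 95% Clopper-Pearson intervals of the latter were 8.81 to 11.6%, 24.1 to 27.5% and 44.6 to 49.7%, and cover counting error only. Dlx5 and Dlx6, homeobox genes of the ventral arches, went the other way, with 27.1% at E9.5, 14.9% in replicate 1 and 2.95% in replicate 2. The group 3 genes belong to the gate, so that their share only describes the cells. Replicate 2 had the higher share for groups 4 and 5 and the lower one for Dlx5 or Dlx6. Hand1 or Hand2, basic helix-loop-helix genes of ventral arch and outflow mesenchyme, had a UMI in 9.60% at E9.5, 24.5% in replicate 1 and 24.3% in replicate 2, so that the replicates were alike there. Isl1 or Gata3 had one in 4.00% at E9.5, 12% in replicate 1 and 20.5% in replicate 2. Lin28a or Lin28b, RNA-binding proteins of early embryonic cells, had one in 38% at E9.5, 23.4% in replicate 1 and 16.4% in replicate 2. In the controls, in the order given above for Tbx1, the shares were 15.6, 24.3 and 20.9% for group 3, 26.8, 32.6 and 27.8% for Dlx5 or Dlx6 and 39.0, 20.3 and 26.2% for Lin28a or Lin28b.

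Neuronal RNA also differed between the replicates. Tubb3 or Stmn2, which encode neuronal cytoskeletal proteins, had a UMI in 8.2% at E9.5, 16.4% in replicate 1 and 56.2% in replicate 2 of thinned gate cells. Sox2/Sox3 cells of the same libraries were defined by at least 3 UMIs of Sox2 and Sox3 and none of Twist1, Prrx1 or Prrx2. They served as a reference for free RNA, with median depths of 14866, 16989 and 16096 UMIs. Being sorted cells, they also hold RNA of their own, so that their levels do not measure free RNA alone. Among them the share was 31.3, 56.3 and 80.2%. The summed level of 10 neural markers was 214, 341 and 821 CPM in the gate and 1118, 1978 and 2437 CPM in Sox2/Sox3 cells, and none of the 10 was at 0. The same Sox2/Sox3 cells held Hox RNA, with a group 3 UMI in 32.2, 63.7 and 66.3% and a group 4 or 5 UMI in 40.3, 59.2 and 73.1%. A UMI of Lin28a or Lin28b was in 29.9, 18.4 and 17.8% of them, also lower at E10.5 and in replicate 2 above the share of the gate. They held Isl1 or Gata3 in 0, 0.669 and 4.78% and little Dlx5 or Dlx6 (0.956, 0.167 and 0.121%) or Hand1 or Hand2 (0.273, 0.961 and 1.81%). The part of free neural RNA in the Hox and Lin28 shares was not tested.

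**Figure D1:**
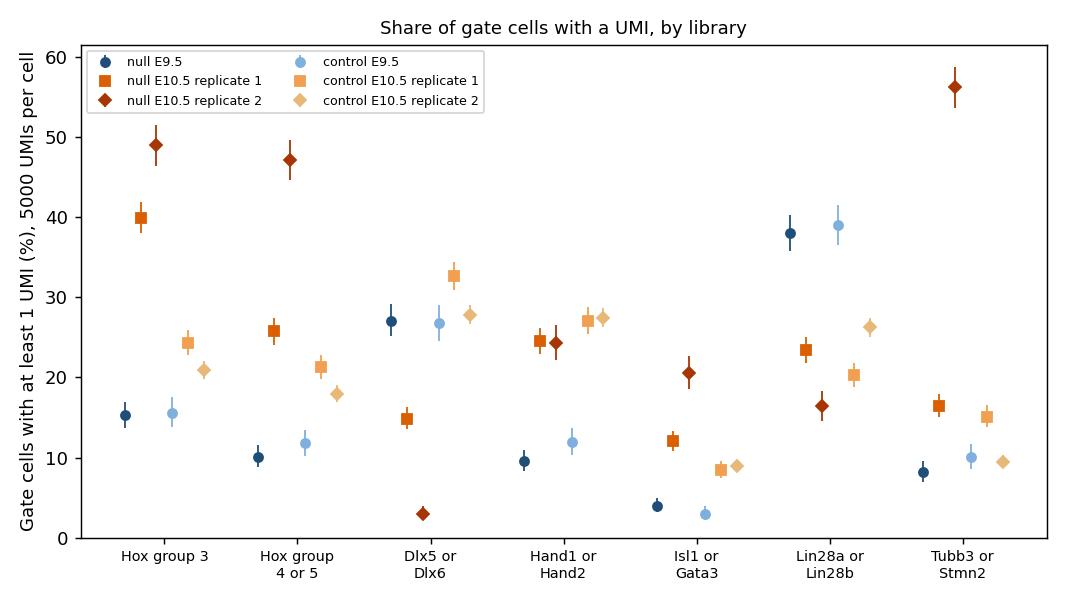
Share of gate cells with at least 1 UMI of each gene set (%, y axis), each cell thinned to 5000 UMIs, in the 3 Tbx1 null and 3 control libraries, with exact 95% intervals for counting error. Null replicate 2 at E10.5 stands highest for Hox groups 3, 4 and 5 and for Tubb3 or Stmn2, and lowest for Dlx5 or Dlx6 at 2.95%.

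Across all gate cells, 0 genes were called higher and 0 lower at E10.5 in the Tbx1 null libraries (0.0% of 16383 tested in each direction), by edgeR's quasi-likelihood test with Benjamini-Hochberg adjustment at 0.05. The smallest adjusted p was 0.0578. In simulated data this fit called 0% of 200 genes changed 2-fold, so that the 0 calls do not show an absence of change. At an unadjusted p under 0.05 there were 3114 genes (19%), of which 1758 (10.7%) were higher and 1356 (8.28%) lower, and DESeq2 called 576 higher and 529 lower. Both E10.5 libraries were at least 2-fold higher than E9.5 in 1687 genes (10.3%) and at least 2-fold lower in 489 (2.98%). The median log2 fold change over all genes was 0.10. The E9.5 group has 1 library, which the fit assumes to vary like the E10.5 replicates, and 2 residual degrees of freedom remained. Leaving out any 1 of the 4 E10.5 libraries ended this result: 1487 genes were then called higher and 1440 lower without null replicate 1, 112 and 50 without null replicate 2, 476 and 185 without control replicate 1, and 129 and 59 without control replicate 2.

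Within gate cells that held a Hox group 3 UMI, some genes passed the threshold. The fit in these cells was not tried on simulated data. Membership of this class moved with depth: at E9.5 it held 15.3% of gate cells at 5000 UMIs and 41.0% without thinning. The part of free Hox RNA in it was not tested. The E9.5 library had 798 such cells, replicate 1 had 1724 and replicate 2 had 1243. Of 15473 genes, 33 rose (0.213%) and 16 fell (0.103%), together 49 (0.317%), with 3018 (19.5%) at an unadjusted p under 0.05, and DESeq2 called 453 higher and 485 lower. Leaving out 1 E10.5 library gave more calls each time: 1366 higher and 1394 lower without null replicate 1, 207 and 138 without null replicate 2, 350 and 116 without control replicate 1, and 376 and 127 without control replicate 2. The gate genes are not read here, since they defined the cells. Of the 7 genes of Hox groups 4 and 5, 1 was called higher, Hoxc5, at 0.222, 5.16 and 10.5 CPM. It had only 4 UMIs over all null gate cells at E9.5. Sox2/Sox3 cells had 2.13, 30.0 and 31.7 CPM of it, above the mesenchyme in all 3 null libraries. Of the list members tested here, 3 of 16 cardiac and outflow, 2 of 21 arch patterning and 2 of 20 matrix genes were called higher, and 0 of the 6 cardiomyocyte markers lower. Below, a value in parentheses with its SE is the log2 fold change of E10.5 over E9.5 on the fitted scale.

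Cxcl12, the chemokine ligand of Cxcr4, was at 29.5 CPM at E9.5 and 137 and 187 CPM in replicates 1 and 2 at E10.5, both replicates well above the E9.5 library (log2 fold change 2.45 ± 0.33 SE, adjusted p = 0.0458). Its level in Sox2/Sox3 cells was 1.96, 2.38 and 5.89 CPM, far under that in the mesenchyme. Igfbp5, a secreted binding protein of insulin-like growth factors, was at 18.6 CPM at E9.5 and 168 and 252 CPM in replicates 1 and 2 at E10.5 (3.5 ± 0.41 SE, adjusted p = 0.0458), and at 38.9, 36.4 and 51.2 CPM in Sox2/Sox3 cells, above the mesenchyme at E9.5. Bmp4, a ligand that signals through Smad proteins in the ventral arches and outflow tract, rose from 3.06 CPM to 19.1 and 28.5 CPM (2.96 ± 0.41 SE, adjusted p = 0.0458). Control cells of the same Hox class had 29.4, 137 and 167 CPM of Cxcl12 and 5.55, 31.0 and 43.0 CPM of Bmp4. For Cxcl12 and Bmp4, both E10.5 libraries thus stood above the E9.5 library in both genotypes. These genes were named because they were called in the null. In all null gate cells, 10.3% of 16383 genes were at least 2-fold higher in both E10.5 libraries.

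Transcription factors of the outflow tract and arches were among the rises. Hand1 went from 1.56 CPM to 14.9 and 20.4 CPM (3.5 ± 0.37 SE, adjusted p = 0.0458). Foxf1, a forkhead factor that responds to hedgehog signals in lateral and pharyngeal mesenchyme, went from 3.5 CPM to 26.3 and 26.0 CPM (2.90 ± 0.38 SE, adjusted p = 0.0458). The 2 E10.5 values of Foxf1 were almost equal, although the libraries differed in their Hox genes. Foxc2, needed for aortic arch formation, was at 2.28, 12 and 12.6 CPM (2.43 ± 0.32 SE, adjusted p = 0.0458), and Gata3, a zinc finger factor, at 4.95, 20.2 and 18.8 CPM (1.98 ± 0.29 SE, adjusted p = 0.0473). Six2, a homeobox gene of the arch mesenchyme, rose from 3.22 CPM to 23.1 and 30.7 CPM (3.06 ± 0.35 SE, adjusted p = 0.0458). In Sox2/Sox3 cells Hand1, Foxf1, Foxc2, Gata3 and Six2 stood at no more than 0.855 CPM in any null library.

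Matrix genes followed. Col1a1, which encodes a chain of type I collagen, was at 2.61 CPM at E9.5 and 40.1 and 56.1 CPM in replicates 1 and 2 at E10.5, the E9.5 value resting on 47 UMIs (4.20 ± 0.39 SE, adjusted p = 0.0424). Col3a1, of type III collagen, was at 31.7, 125 and 164 CPM (2.19 ± 0.30 SE, adjusted p = 0.0458), and Mfap4, a microfibril-associated protein, at 35.7, 129.9 and 138 CPM (1.90 ± 0.27 SE, adjusted p = 0.0458). In each of these 3 matrix genes replicate 2 was the higher of the E10.5 libraries. Rgs5, a regulator of G protein signalling found in pericytes and vascular smooth muscle, rose from 0.445 CPM (8 UMIs) to 9.71 and 22.3 CPM (5.16 ± 0.70 SE, adjusted p = 0.0458). Cyp26a1, an enzyme that breaks down retinoic acid, rose from 0.222 CPM (4 UMIs) to 4.80 and 4.97 CPM (4.43 ± 0.63 SE, adjusted p = 0.0458). Mpped2 was at 18.6, 72.7 and 85.5 CPM (2.09 ± 0.28 SE, adjusted p = 0.0458). In all control gate cells, in the order E9.5, E10.5 replicate 1 and E10.5 replicate 2, Col1a1 was at 4.11, 43.1 and 31.5 CPM. Col3a1 was at 37.2, 199.9 and 189.5 CPM, Rgs5 at 2.34, 20.23 and 15.55 CPM and Cyp26a1 at 0.578, 10.2 and 15.3 CPM. Each of these was higher at E10.5 in the controls too.

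Expression of Bcl11a, a zinc finger repressor, was at 1.11 CPM at E9.5 and 30.1 and 78.8 CPM in replicates 1 and 2 at E10.5 (5.61 ± 0.72 SE, adjusted p = 0.0458). Sox2/Sox3 cells had it at 0.939, 36.9 and 90.2 CPM, also far higher at E10.5, and the part of free neural RNA in its rise was not tested. Bcl11b, its paralog, singled out after its values were seen, had 3 UMIs in the E9.5 library, 592 in replicate 1 and 1030 in replicate 2, and was at 0.167, 11.3 and 27.4 CPM here against at most 22.4 CPM in Sox2/Sox3 cells. Control cells had 0.208, 65.8 and 66.3 CPM of Bcl11a, with both E10.5 values far above E9.5.

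Among the falls, Hopx, a homeodomain-only protein of cardiac progenitors, went from 64.2 CPM to 5.24 and 1.25 CPM (-4.28 ± 0.62 SE, adjusted p = 0.0473). Rbis, a small ribosome biogenesis factor, went from 291 CPM to 84.4 and 90.9 CPM (-1.73 ± 0.24 SE, adjusted p = 0.0458), and Sox2/Sox3 cells had 242, 97.0 and 127 CPM, also lower at E10.5. The following falls were singled out after their values were seen. Nr6a1, a nuclear receptor of early embryos, was at 34.6, 7.97 and 6.24 CPM (-2.28 ± 0.26 SE, adjusted p = 0.0458), and at 31.6, 9.92 and 8.16 CPM in Sox2/Sox3 cells. The heart muscle genes Myl2 at 9, 0.172 and 0.159 CPM, Myl3 at 5.45, 0.210 and 0.266 CPM and Nppa at 4.39 CPM with 0 UMIs in both E10.5 libraries were also called. The summed level of 6 cardiomyocyte markers in all gate cells was 11.2, 3.11 and 11 CPM, with none at 0, against 2.73, 1.65 and 2.20 CPM in Sox2/Sox3 cells. As a list these 6 did not fall, with a median log2 fold change of 0.04. In both E10.5 libraries 2 were lower and 1 was higher, Nkx2-5, at 0.122, 0.562 and 3.49 CPM. The part of heart muscle RNA in the falls of Myl2, Myl3 and Nppa was not tested.

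In mm10 coordinates of the GENCODE annotation, the genes with the leading roles above are Cxcl12 at chr6:117168535-117181367 (plus strand), Igfbp5 at chr1:72857932-72874884 (minus strand), Bmp4 at chr14:46383520-46390669 (minus strand), Hand1 at chr11:57828705-57832818 (minus strand), Col1a1 at chr11:94936224-94953042 (plus strand) and Hopx at chr5:77086988-77115121 (minus strand). Counts are taken over the gene, and 3' reads do not tell its isoforms apart.

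**Figure D2:**
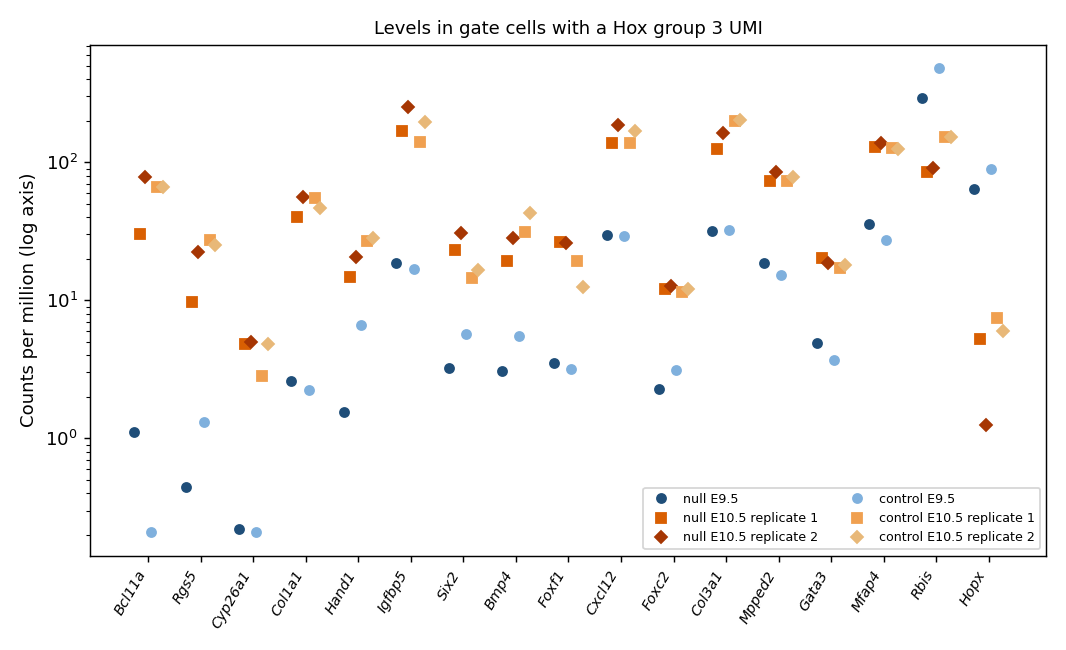
Levels in gate cells with a Hox group 3 UMI (CPM on a log axis) of 17 called genes, 1 point per library, for Tbx1 null (dark) and control (light) at E9.5 (circles) and in E10.5 replicates 1 (squares) and 2 (diamonds). In every gene shown both null E10.5 points lie on the same side of the null E9.5 point, from Bcl11a, higher at E10.5, to Hopx, lower. The genes were picked as called, some by a rule that required this, so that it is no separate result.

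In gate cells without a Hox group 3 UMI, which had only Hoxa2 or Hoxb2 among the 5 Hox genes of the gate, 19 of 14829 genes rose (0.128%) and 10 fell (0.0674%), together 29 (0.196%), with 2384 (16.1%) at an unadjusted p under 0.05, and DESeq2 called 248 higher and 217 lower. The E9.5 library had 1149 such cells, replicate 1 had 942 and replicate 2 had 288. Without null replicate 1 there were 1473 and 1526 calls, without null replicate 2 there were 288 and 231, without control replicate 1 there were 250 and 112, and without control replicate 2 there were 236 and 108. Of the calls, 13 were made in both Hox classes, 44.8% of the 29 here and 26.5% of the 49 in group 3 cells. Which calls differ between the classes was not tested. Cxcl12 was again higher at E10.5, at 22.5, 130.1 and 207 CPM (2.91 ± 0.40 SE, adjusted p = 0.0457), as were Bcl11a at 0.893, 42.1 and 94.9 CPM (6.25 ± 0.66 SE, adjusted p = 0.0247) and Cyp26a1 at 0.766, 27.8 and 23.7 CPM (5.07 ± 0.40 SE, adjusted p = 0.00590). Twist2, the paralog of Twist1, rose from 15.9 CPM to 92.5 and 71.0 CPM (2.36 ± 0.33 SE, adjusted p = 0.0457).

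Gsc, a homeobox gene of the ventral arches, rose from 2.55 CPM to 18.5 and 30.2 CPM (3.24 ± 0.41 SE, adjusted p = 0.0398), and control cells had 1.21, 70.0 and 62.4 CPM. Pax9, Hmx1, Scx and Igf1 were singled out after their values were seen. Pax9, a paired box factor, was at 1.32, 26.8 and 19 CPM (4.12 ± 0.40 SE, adjusted p = 0.0187), and Hmx1, a homeobox gene of the ear-forming arch mesenchyme, at 0.511, 21.2 and 22.5 CPM (5.41 ± 0.43 SE, adjusted p = 0.00590). For Hmx1 the control cells reached 131 and 103 CPM at E10.5. Scx, a tendon factor, was at 1.40, 12.9 and 25 CPM (3.73 ± 0.52 SE, adjusted p = 0.0457), and Igf1, an insulin-like growth factor, at 1.32, 27.3 and 56.1 CPM (4.97 ± 0.59 SE, adjusted p = 0.0360). Cdkn2b, an inhibitor of Cdk4 and Cdk6, rose from 0.255 CPM (6 UMIs) to 6.58 and 9.51 CPM (4.94 ± 0.66 SE, adjusted p = 0.0457). Sox2/Sox3 cells had 0.683, 6.06 and 4.97 CPM of Cdkn2b, also higher at E10.5.

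Cyp26b1, another enzyme of retinoic acid breakdown, fell from 12.9 CPM to 1.21 and 1.90 CPM (-3.14 ± 0.36 SE, adjusted p = 0.0360), opposite to Cyp26a1 in the same cells. Klk8, a serine protease, fell from 50.9 CPM to 15.0 and 14.6 CPM (-1.78 ± 0.25 SE, adjusted p = 0.0457). AY036118, whose reads resemble ribosomal RNA, was at 99.0, 6.18 and 13.6 CPM (-3.38 ± 0.43 SE, adjusted p = 0.0398), and control cells had 36.6, 127 and 96.9 CPM. Its neighbour in kind, Gm42418, was at 1353, 160.2 and 413 CPM over all null gate cells and 446, 2400.4 and 4316 CPM in the controls, so that these 2 transcripts stood lower at E10.5 in the null and higher in the control libraries.

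Over all gate cells no gene was called, and levels are given as values. The gene lists read below were chosen with earlier results of these data known. Their counts beside the shares of all genes are therefore no test of the lists. By the smaller of the log2 ratios of the 2 E10.5 libraries to E9.5, among 3161 genes with at least 50 CPM at either stage, the 10 genes farthest up were Bcl11a, Igfbp5, Tle5, Stmn2, Cxcl12, Nefm, Rnd2, Mpped2, Mir100hg and Col3a1. This order was set after the data were seen. Stmn2 (4.93, 26.2 and 102 CPM), Nefm (6.17, 30.9 and 128 CPM) and Rnd2 (10.2, 47.7 and 82.2 CPM) are genes of neurons, with 19.4, 97.8 and 122 CPM, 8.79, 60 and 99.6 CPM and 57.4, 238 and 295 CPM in Sox2/Sox3 cells. Tle5, a co-repressor, was at 12.2, 79.3 and 205 CPM and at 35.3, 145 and 211 CPM in Sox2/Sox3 cells. The 10 farthest down were Hopx, AY036118, 2810403D21Rik, Rbis, Prtg, Gm42418, Pdlim1, Eif3j1, Wdcp and Prelid2. Prtg, a protogenin of early embryonic epithelia and mesenchyme, was at 152, 46.1 and 27.2 CPM (-2.05 ± 0.33 SE, adjusted p = 0.0852), and Pdlim1, an actin-associated protein, at 51.2, 16.1 and 12.9 CPM (-1.82 ± 0.26 SE, adjusted p = 0.0704).

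All 7 genes of Hox groups 4 and 5, which mark the most caudal crest, were higher at E10.5 at an unadjusted p under 0.05, against 10.7% of all genes, with a median log2 fold change of 3.65 beside 0.10 over all genes. Hoxa5 was at 0.439 CPM at E9.5 and 6.87 and 20.3 CPM in replicates 1 and 2 at E10.5 (4.94 ± 0.85 SE, adjusted p = 0.0972), and Hoxd4 at 16.8, 40.4 and 70.4 CPM (1.72 ± 0.44 SE, adjusted p = 0.160). The E9.5 value of Hoxa5 rested on 18 UMIs. Replicate 2 held the higher level of all 7. Sox2/Sox3 cells had 3.25, 41.4 and 77.2 CPM of Hoxa5 and 78.8, 121 and 158 CPM of Hoxd4. Of the 6 Dlx genes, which set dorsal and ventral identity in the arches, 0 were higher and 1 was lower at an unadjusted p under 0.05, against 10.7% and 8.28% of all genes, with a median of -1.37. Dlx5 was at 84.5 CPM at E9.5 and 32.7 and 2.46 CPM in replicates 1 and 2 at E10.5 (-2.26 ± 1.05 SE, adjusted p = 0.294), and Dlx6 at 39.4, 13.2 and 1.94 CPM (-2.36 ± 0.81 SE, adjusted p = 0.210). On the log2 scale the 2 replicates of Dlx5 lay farther apart than E9.5 and replicate 1. Dlx2 was at 94.4, 96.7 and 31.6 CPM, so that replicate 1 stood at the E9.5 level. Of the 3 Hox group 1 genes, 1 was higher (against 10.7% of all genes) and 0 lower (against 8.28%) at an unadjusted p under 0.05.

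Among arch patterning genes, 12 of 22 tested members were higher (against 10.7% of all genes) and 1 lower (against 8.28%) at an unadjusted p under 0.05 (median 1.02). Osr1, a zinc finger factor of caudal mesenchyme, was at 0.171 CPM at E9.5 and 4.24 and 23.9 CPM in replicates 1 and 2 at E10.5 (6.34 ± 1.29 SE, adjusted p = 0.115), with replicate 2 far above replicate 1. The E9.5 value of Osr1 rested on 7 UMIs. Hand2 was at 31.8, 71.5 and 62.2 CPM (1.07 ± 0.26 SE, adjusted p = 0.154). Meox1, a homeobox gene, was at 68.0 CPM at E9.5 and 28.1 and 14.2 CPM in replicates 1 and 2 at E10.5 (-1.68 ± 0.38 SE, adjusted p = 0.130), the lone member lower at that threshold. Barx1, a homeobox gene of arch mesenchyme, was at 124, 94.8 and 11.7 CPM, nearer to E9.5 in replicate 1 and far under it in replicate 2. Of 14 genes of early crest, 0 were higher (against 10.7% of all genes) and 3 lower (against 8.28%) at an unadjusted p under 0.05 (median -0.09): Foxd3, Ets1 and Sox8 were the 3, with 2.61, 0.437 and 1.31 CPM, 28.7, 15.9 and 19.4 CPM and 5.93, 3.67 and 2.63 CPM.

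Of the genes of cardiac crest and outflow tract, 11 of 16 tested members were higher (against 10.7% of all genes) and 1 lower (against 8.28%) at an unadjusted p under 0.05 (median 1.51). Tbx2, a T-box repressor of the outflow tract, was at 25.2 CPM at E9.5 and 70.7 and 49.3 CPM in replicates 1 and 2 at E10.5 (1.25 ± 0.35 SE, adjusted p = 0.170), both replicates above E9.5, while its paralog Tbx3 was at 30.2, 32.6 and 29.6 CPM, without a step. Isl1, a LIM homeobox gene of the second heart field and outflow mesenchyme, was at 3.29 CPM at E9.5 and 14.7 and 40.2 CPM in replicates 1 and 2 at E10.5 (3.06 ± 0.62 SE, adjusted p = 0.115), and Gata6 at 0.830, 4.87 and 13.3 CPM (3.44 ± 0.68 SE, adjusted p = 0.113). Isl1 in Sox2/Sox3 cells was at 0.256, 2.54 and 22.7 CPM, also highest in replicate 2. Mef2c, a MADS box factor, was at 49.1, 25.3 and 30.1 CPM (-0.83 ± 0.26 SE, adjusted p = 0.189). In the smooth muscle list 6 of 17 tested members were higher (against 10.7% of all genes) and 1 lower (against 8.28%) at an unadjusted p under 0.05 (median 0.65). Acta2, smooth muscle actin, was at 7.88 CPM at E9.5 and 16.6 and 41.4 CPM in replicates 1 and 2 at E10.5 (1.88 ± 0.64 SE, adjusted p = 0.209), and Tagln, transgelin, at 37.4, 36.7 and 80.9 CPM, its replicate 1 within 1 CPM of E9.5. Both were highest in replicate 2.

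In the skeletogenic list 2 of 11 tested members were higher (against 10.7% of all genes) and 1 lower (against 8.28%) at an unadjusted p under 0.05 (median 0.20), close to the shares of all genes. Col9a1, of type IX collagen, was at 43.4 CPM at E9.5 and 96.9 and 145 CPM in replicates 1 and 2 at E10.5 (1.48 ± 0.33 SE, adjusted p = 0.128), and Hapln1, a link protein of proteoglycan matrix, at 21.3, 4.92 and 6.61 CPM (-1.89 ± 0.28 SE, adjusted p = 0.0708), in the opposite direction. Sox9, the master factor of cartilage, was at 62.4, 59.2 and 84.5 CPM and Col2a1 at 70.3, 70.2 and 101 CPM, with replicate 1 close to E9.5 in both. Among 20 matrix genes, 9 were higher (against 10.7% of all genes) and 1 lower (against 8.28%) at an unadjusted p under 0.05 (median 0.75). Lum, lumican, was the member that was lower, at 7.22, 4.63 and 2.97 CPM.

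In the BMP list 4 of 20 tested members were higher (against 10.7% of all genes) and 1 lower (against 8.28%) at an unadjusted p under 0.05 (median 0.46). Besides Bmp4 these were Bmp7, Bmpr2 and Smad6 on the higher side and Id1, a BMP target, at 1238 CPM at E9.5 and 685 and 403 CPM in replicates 1 and 2 at E10.5 (-1.19 ± 0.38 SE, adjusted p = 0.193), on the lower. The targets Msx1 and Msx2 were at 129, 214 and 179 CPM and 113, 80.3 and 30.7 CPM. In comparison, Sox2/Sox3 cells had 2.48, 9.33 and 7.83 CPM of Bmp7 and 11.9, 24.3 and 39.2 CPM of Bmpr2, also higher at E10.5, and for Bmp7 above the gate there. Smad6 in them was at 3.07, 6.61 and 5.49 CPM. They had 654, 528 and 323 CPM of Id1, also lower at E10.5. Msx1 was at 209.6, 242 and 197 CPM in them, above the gate in all 3 libraries, and Msx2 at 56.2, 57.1 and 22.1 CPM. Bmp4 was at 1.79, 0.617 and 1.65 CPM, without the step seen in the gate. In the FGF and MAPK list 1 of 17 tested members were higher (against 10.7% of all genes) and 2 lower (against 8.28%) at an unadjusted p under 0.05 (median -0.39), so that neither count stood far from the share of all genes. Dusp6, a feedback phosphatase of ERK, was at 42.6, 30.5 and 12.7 CPM and Spry4 at 5.81, 2.35 and 0.689 CPM, lowest in replicate 2. Among retinoic acid genes 5 of 13 tested members were higher (against 10.7% of all genes) and 3 lower (against 8.28%) at an unadjusted p under 0.05 (median 0.66). Aldh1a2, which makes retinoic acid, was at 0.390 CPM at E9.5 and 2.51 and 8.10 CPM in replicates 1 and 2 at E10.5 (3.75 ± 0.85 SE, adjusted p = 0.132), Stra6, a retinol receptor, at 0.927, 4.78 and 8.79 CPM, and Crabp1, a binding protein of retinoic acid, at 2261 CPM at E9.5 and 926 and 869.7 CPM in replicates 1 and 2 at E10.5 (-1.33 ± 0.32 SE, adjusted p = 0.146). The 2 replicates of Crabp1 were close to each other. The E9.5 value of Aldh1a2 rested on 16 UMIs.

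In the hedgehog list 3 of 10 tested members were higher (against 10.7% of all genes) and 0 lower (against 8.28%) at an unadjusted p under 0.05 (median 0.66), among them Gas1, a co-receptor, at 91.0, 166 and 176 CPM and Gli1, the target and effector of the pathway, at 3.22, 4.89 and 6.53 CPM. For Wnt genes 3 of 12 tested members were higher (against 10.7% of all genes) and 1 lower (against 8.28%) at an unadjusted p under 0.05 (median 0.32), with Axin2, a target of the canonical pathway, at 16.1, 25.3 and 48.2 CPM and highest in replicate 2, as in Sox2/Sox3 cells, which had 41.2, 63.2 and 90.7 CPM. Of the endothelin, PDGF and semaphorin genes 2 of 10 tested members were higher (against 10.7% of all genes) and 0 lower (against 8.28%) at an unadjusted p under 0.05 (median 0.25). These were Cxcl12 and Edn1. The receptor Ednra was at 10.7, 6.84 and 10.7 CPM and Pdgfra at 38.6, 54.3 and 54.1 CPM.

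Of 16 ribosome biogenesis genes, 13 were lower and 0 higher at an unadjusted p under 0.05, against 8.28% of all genes lower and 10.7% higher (median -1.26). Npm1, nucleophosmin, was at 9329.7 CPM at E9.5 and 3850.1 and 2084 CPM in replicates 1 and 2 at E10.5 (-1.65 ± 0.41 SE, adjusted p = 0.154), and Ncl, nucleolin, at 2705, 1208 and 917 CPM (-1.35 ± 0.31 SE, adjusted p = 0.134). Gnl3, a nucleolar GTPase, was at 293, 104 and 76.8 CPM (-1.70 ± 0.28 SE, adjusted p = 0.0852). In Sox2/Sox3 cells Npm1 was at 5933, 3590.0 and 2715 CPM and Ncl at 1506, 1196 and 1277 CPM. Of the glycolysis genes, 1 of 17 tested members were higher (against 10.7% of all genes) and 10 lower (against 8.28%) at an unadjusted p under 0.05 (median -0.76). Ldha, lactate dehydrogenase A, was at 3068 CPM at E9.5 and 1738 and 906 CPM in replicates 1 and 2 at E10.5 (-1.21 ± 0.41 SE, adjusted p = 0.203), and Hk2, hexokinase 2, at 46.8, 15.2 and 19.4 CPM (-1.44 ± 0.29 SE, adjusted p = 0.115). Sox2/Sox3 cells had 2649, 1779 and 1145 CPM of Ldha. Since levels are relative to all RNA of a library, less of these abundant transcripts and more of others cannot be told apart, and the TMM factors that set the scale were 0.847, 1.11 and 1.22.

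In the heterochronic list 0 of 11 tested members were higher (against 10.7% of all genes) and 4 lower (against 8.28%) at an unadjusted p under 0.05 (median -0.16). Lin28a was at 56.4 CPM at E9.5 and 20.2 and 10.2 CPM in replicates 1 and 2 at E10.5 (-1.89 ± 0.46 SE, adjusted p = 0.150), Lin28b at 66.0, 32.0 and 18.9 CPM (-1.37 ± 0.35 SE, adjusted p = 0.160), and Trim71, a partner in the same let-7 pathway, at 81.9, 32.0 and 33.9 CPM (-1.32 ± 0.25 SE, adjusted p = 0.113). Sox2/Sox3 cells had 32.0, 12.3 and 8.03 CPM of Lin28a and 51.5, 22.4 and 32.8 CPM of Trim71. Sall4, a zinc finger factor of early embryos, was the other of the 4, while Igf2bp1 and Hmga2 were at 246, 223 and 232 CPM and 408, 391 and 435 CPM. Among S phase genes 0 of 16 tested members were higher (against 10.7% of all genes) and 2 lower (against 8.28%) at an unadjusted p under 0.05 (median -0.23), and among 16 G2 and M phase genes 0 were higher and 0 lower (median -0.34). Mki67 was at 145, 135 and 159.9 CPM. Of 11 cell cycle inhibitors and antiproliferative genes, 6 were higher and 0 lower, against 10.7% and 8.28% of all genes (median 0.80), with Btg1 at 37.3 CPM at E9.5 and 70.9 and 80.6 CPM in replicates 1 and 2 at E10.5 (1.02 ± 0.26 SE, adjusted p = 0.160). Sox2/Sox3 cells had 61.6, 150.4 and 169 CPM of Btg1, above the gate and also higher at E10.5.

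Of 12 imprinted or growth genes, 5 were higher and 0 lower at an unadjusted p under 0.05, against 10.7% and 8.28% of all genes (median 0.73). H19 was at 75.6 CPM at E9.5 and 229 and 420.2 CPM in replicates 1 and 2 at E10.5 (2.10 ± 0.46 SE, adjusted p = 0.127), Igf2, the growth factor of the same domain, at 30.1, 79.0 and 112 CPM (1.66 ± 0.32 SE, adjusted p = 0.111), and Plagl1, a zinc finger factor, at 5.95, 24.2 and 59.4 CPM (2.81 ± 0.56 SE, adjusted p = 0.114). In Sox2/Sox3 cells Igf2 was at 2.22, 2.51 and 7.34 CPM and H19 at 9.31, 23.4 and 55.6 CPM, while Plagl1 was at 12.2, 28.1 and 39.9 CPM, above the gate at E9.5 and also higher at E10.5. Among stress and dissociation genes 1 of 10 tested members were higher (against 10.7% of all genes) and 3 lower (against 8.28%) at an unadjusted p under 0.05, with Jun at 45, 60.7 and 117 CPM and Junb at 27.4, 11.9 and 8.10 CPM. Of other cell types, the neural markers stood at 214, 341 and 821 CPM in the gate, as given above. Further summed levels were 164, 108 and 108 CPM for 6 glial crest markers, with Sox10 at 0 by the gate. They were 39.6, 31.1 and 47.4 CPM for 6 epithelial and 2.03, 2.45 and 5.90 CPM for 6 endothelial markers. For 6 pharyngeal mesoderm markers they were 4.83, 10.8 and 20.1 CPM. Blood (6 markers) was at 1.10, 0.0125 and 7.82 CPM and immune (4 markers) at 0.634, 0.599 and 0.215 CPM. Ptprc, the defining immune marker, had 0 UMIs in all 3 null libraries. Among the endothelial markers, Kdr was at 0.683, 1.06 and 2.80 CPM, Pecam1 at 0.268, 0.549 and 2.48 CPM and Cldn5 at 0.0488, 0.599 and 0.452 CPM, each higher in both E10.5 libraries, while Emcn was at 0.854, 0.112 and 0.108 CPM and Tie1 at 0.146, 0.112 and 0.0646 CPM, each lower in both, and Cdh5 was at no more than 0.0244 CPM. Their part in the results was not tested.

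**Figure D3:**
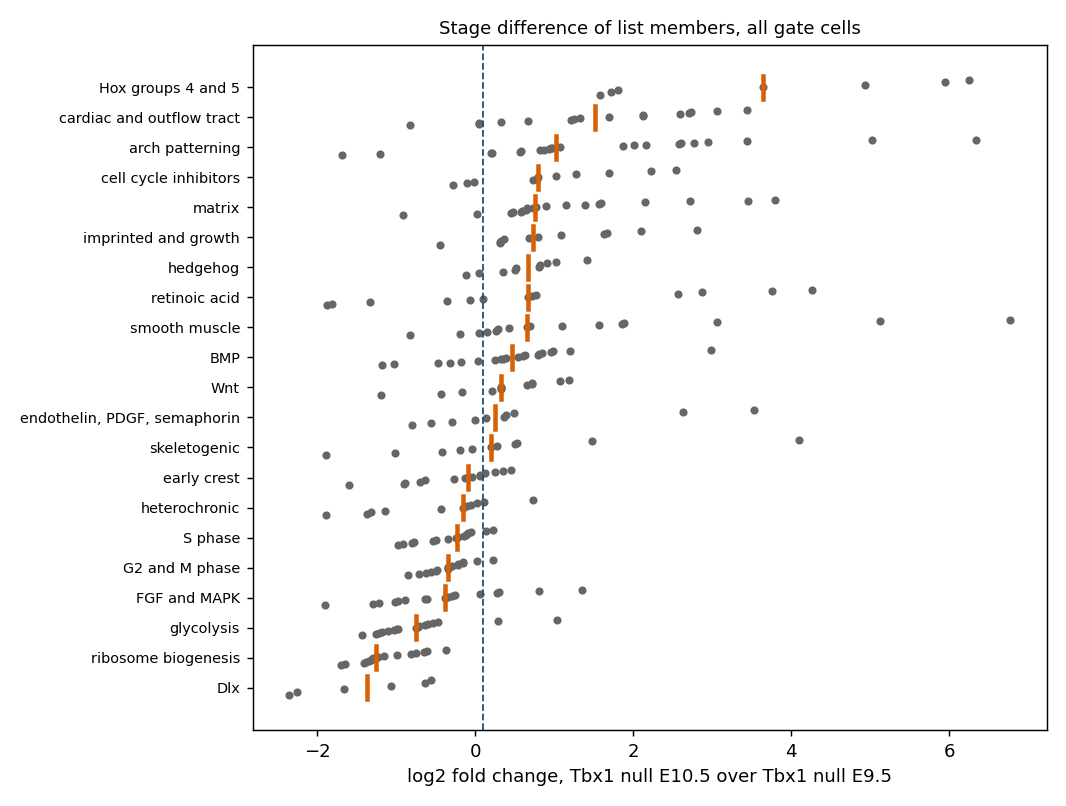
Log2 fold change of Tbx1 null E10.5 over Tbx1 null E9.5 in all gate cells (x axis), 1 point per tested gene, in 21 gene lists (y axis). Orange bars are list medians, from 3.65 for Hox groups 4 and 5 to -1.37 for Dlx, and the dashed line is the median of all 16383 genes at 0.10.

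**Figure D4:**
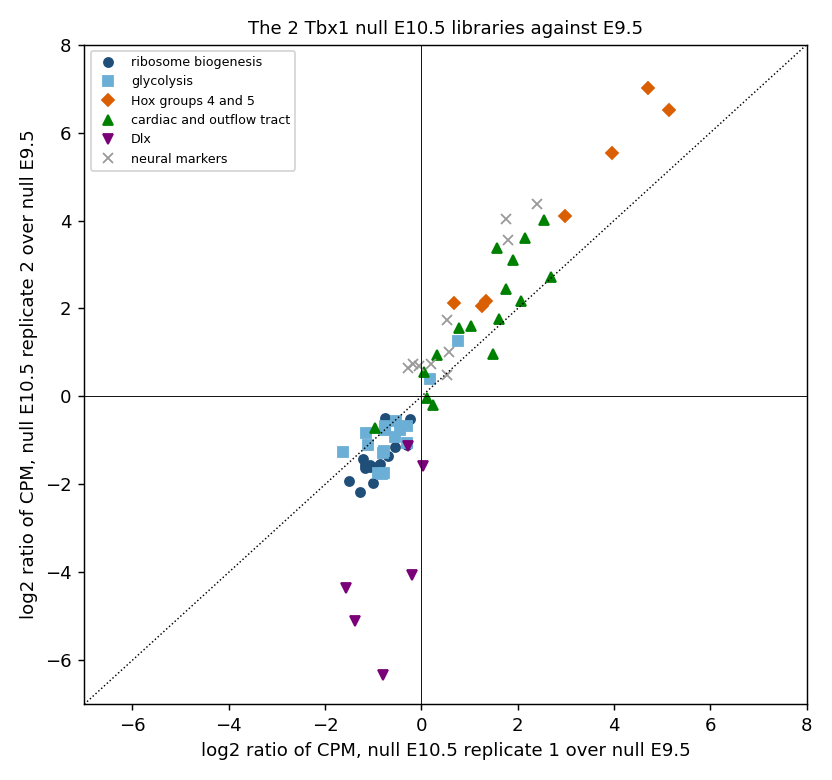
Log2 ratio of CPM of each Tbx1 null E10.5 library to the Tbx1 null E9.5 library, replicate 1 on the x axis and replicate 2 on the y axis, for members of 6 lists. Both axes share the E9.5 library. The 16 ribosome biogenesis genes lie under 0 on both axes, Hox groups 4 and 5 lie over the dotted line of equality, and Dlx genes lie under it.

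The stage difference was set against that of the control mesenchyme by the interaction term of the same fit. Of 16383 genes, 0 differed upward (0.0%) and 1 downward (0.0061%), with 491 (3.0%) at an unadjusted p under 0.05, 276 of them upward (1.68%) and 215 downward (1.31%), and DESeq2 called 8 and 17. Leaving out 1 E10.5 library gave 0 to 49 upward and 1 to 34 downward calls. The 1 gene was Xist, the transcript that coats the inactive X chromosome, near 0 in the control E9.5 library. No interaction of a list gene passed the test, so the following are values.

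Emx2, a homeobox gene, had 2, 26 and 22 UMIs in the null libraries, or 0.0488, 0.325 and 0.474 CPM, against 1, 2559 and 5642 UMIs, or 0.0304, 31.3 and 50.3 CPM, in the controls. No fold is given, since the E9.5 libraries held 1 or 2 UMIs. Both null E10.5 libraries stood far under both control E10.5 libraries. Below, the value with its SE is the difference of log2 fold changes, null minus control. Gsc was at 1.88, 9.05 and 16.7 CPM in the null against 1.13, 47.8 and 46.7 CPM in the control libraries (-2.62 ± 0.60 SE, adjusted p = 1.00), and Dkk2, a Wnt antagonist, at 4.49, 6.07 and 5.13 CPM against 1.55, 13.2 and 13.0 CPM (-2.75 ± 0.42 SE, adjusted p = 1.00). Bmpr1b, a BMP receptor, was at 5.25, 5.72 and 6.77 CPM against 4.75, 15.9 and 17.3 CPM (-1.56 ± 0.39 SE, adjusted p = 1.00). In these 4 genes the control E10.5 libraries were above both null E10.5 libraries. The share of all genes with such a gap was not counted. No gene of this paragraph was named by its interaction, and they were singled out here after these values were seen. Gsc, Six2 and Hand1 met the naming rule within a Hox class. On the other side, Six2 was at 2.03, 16.9 and 27.2 CPM against 2.95, 8.24 and 7.74 CPM (2.01 ± 0.51 SE, adjusted p = 1.00), and Hand1 at 3.20, 15.0 and 24.1 CPM against 15.4, 21.6 and 20.9 CPM (2.14 ± 0.48 SE, adjusted p = 1.00), the latter with its gap at E9.5. Meox1 was at 68.0, 28.1 and 14.2 CPM against 195, 12.4 and 12 CPM (2.32 ± 0.56 SE, adjusted p = 1.00), and Aldh1a2 at 0.390, 2.51 and 8.10 CPM against 1.55, 2.41 and 1.71 CPM (3.34 ± 1.04 SE, adjusted p = 1.00). Dlx5 was at 86.3, 72.4 and 61.0 CPM in the controls, without the low value of null replicate 2 (-1.88 ± 1.55 SE, adjusted p = 1.00).

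For Cxcl12 the log2 fold change was 2.63 in the null and 2.39 in the control mesenchyme (0.24 ± 0.42 SE, adjusted p = 1.00), for Foxc2 2.12 and 2.20 (-0.08 ± 0.38 SE, adjusted p = 1.00), and for Nop58, a nucleolar protein, -1.32 and -1.29 (-0.03 ± 0.40 SE, adjusted p = 1.00). The SE of these differences leaves room for an unequal change. The list medians were -1.26 and -1.09 for ribosome biogenesis, 1.51 and 1.11 for cardiac and outflow genes, 0.75 and 1.09 for matrix, and -1.37 and 0.02 for Dlx genes.

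**Figure D5:**
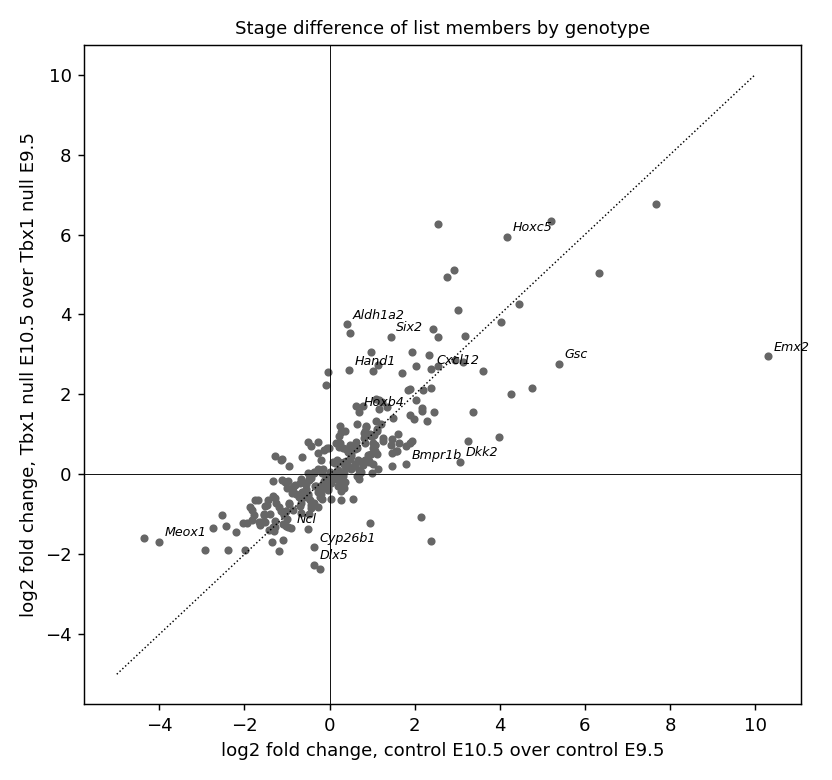
Log2 fold change of E10.5 over E9.5 in control mesenchyme (x axis) and Tbx1 null mesenchyme (y axis), 1 point per gene of the 21 lists, with some genes named. The dotted line marks equality. Gsc lies under it, at 5.39 in the control and 2.77 in the null, and Emx2 farthest to the right rests on 1 or 2 UMIs at E9.5.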

How the data were processed

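Single-cell RNA-seq libraries (10x Genomics 3' kits, version 3 or 3.1) were aligned by the authors with Cell Ranger 6.0.1 to mm10, per the labels and the study's methods, and the deposited files hold raw UMI counts per gene and barcode. Of 7 libraries, the 6 at E9.5 and E10.5 were used, and the E8.5 control library was left out because it has no null counterpart. Cells were gated on counts (Python 3.11.15, scanpy 1.11.5) and raw counts were summed per library. edgeR 4.0.16 in R 4.3.3 was run across all genes (filterByExpr, TMM, quasi-likelihood fit of 4 group means, 2 residual degrees of freedom), with Benjamini-Hochberg adjustment and a threshold of 0.05. The same fit was made in cells with and without a Hox group 3 UMI. Shares were taken after thinning each cell to 5000 UMIs, leaving out shallower cells (20, 14 and 5 in the null gate at E9.5 and in replicates 1 and 2), with exact 95% intervals. Doublets were not removed, except in an alternative that dropped 460, 275 and 147 null gate cells. The fit over all gate cells was tested on simulated data with 200 genes changed 2-fold. It called 0% of them and made 3 false calls, so that counts of calls near the threshold are weak evidence. The fits within the Hox classes were not tested in this way.

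Since no gene was called in all gate cells, the naming rule was applied within the Hox classes: up to 10 called genes with the largest log2 fold change in each direction, with at least 50 CPM at either stage and both E10.5 libraries on the same side of E9.5, and called members of the gene lists. Gate, mitochondrial, haemoglobin and Y-linked genes, Xist and Tsix were left out, and exceptions are marked in the text. The members and lists were chosen with earlier results of these data known. 1 gene that met the naming rule is not reported here.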

Additional observations from a re-analysis of the deposited data

Results flagged for a closer look

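Xist was the gene whose stage difference differed between the genotypes by the interaction test (edgeR's quasi-likelihood test, -12.81 on the log2 scale, adjusted p = 0.025). It was at 419, 441 and 644 CPM in null E9.5 and null E10.5 replicates 1 and 2, and at 0.0304 CPM in control E9.5 against 238 and 362 CPM in the control E10.5 replicates. The Y-linked gene Eif2s3y was at 22.7, 15.6 and 0 CPM in the null libraries in the same order. In control E9.5 and control E10.5 replicates 1 and 2 it was at 37.5, 28.3 and 17.0 CPM, highest in control E9.5. Its part in the Xist value, and that of the sex mix of the pools, was not tested. Xist was singled out after its values were seen.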

How the results depend on the processing

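In all gate cells, where 0 genes were called, the calls depended on the setting. The counts of genes higher and lower at E10.5 in the null mesenchyme were 576 and 529 with DESeq2, 30 and 25 with DESeq2 size factors in edgeR, 1186 and 660 without a filter on low counts, 150 and 84 with cells thinned before the gate, 165 and 74 without the Hox gate, and 214 and 81 with only the 3 null libraries. They were 33 and 16 in cells with a Hox group 3 UMI and 19 and 10 in cells without one. Leaving out 1 E10.5 library gave 112 to 1487 higher and 50 to 1440 lower. They stayed at 0 and 0 without predicted doublets, with at least 2 Hox UMIs, and with the other cell filter. The cause of these shifts was not tested. For the difference between genotypes, the counts were 8 and 17 with DESeq2, 70 and 80 without a filter, and 2 downward with thinned cells, and 0 to 49 upward and 1 to 34 downward when 1 library was left out.

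In cells with a Hox group 3 UMI the counts were 453 and 485 with DESeq2, 1095 and 646 without a filter, 398 and 142 with only the null libraries, and 207 to 1366 and 116 to 1394 without 1 library. In cells without one they were 248 and 217, 646 and 411, 109 and 50, and 236 to 1473 and 108 to 1526. Of the genes named by rule, Twist2 in the second class was not called in 1 of 9 alternatives, with an adjusted p of 0.0517. Nearly all of these alternatives call more genes, so that staying called is no sign of stability. Without null replicate 1 or 2, 1 null library stands against 1, and the lone samples are assumed to vary like the control E10.5 replicates.

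With the replicate number as a block within E10.5, the counts were 273 and 230 in all gate cells, 242 and 187 with and 640 and 614 without a Hox group 3 UMI, and 4 downward for the difference between genotypes. Over genes, the difference of replicate 1 from replicate 2 in the null correlated at 0.0257 with that in the control. A single correlation from 2 pairs cannot show whether same-numbered samples shared a batch. The labels give them only a number in common, and the main fit did not pair them.

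Of the single genes followed, 5032 values of the stage difference under an alternative stayed on the same side of the threshold, 896 passed it, and 1 passed it in the opposite direction. The log2 fold change of Lhx8, a LIM homeobox gene, was 0.22 with all libraries, -1.21 (adjusted p = 0.0315) without null E10.5 replicate 1 and 0.92 without null E10.5 replicate 2. Without thinning, the shares at E9.5 and in replicates 1 and 2 were 41.0, 64.7 and 81.2% for Hox group 3, 46.0, 29.3 and 7.71% for Dlx5 or Dlx6, 24.8, 39.7 and 37.4% for Hand1 or Hand2, 85.8, 70.3 and 50.3% for Lin28a or Lin28b, and 22.7, 41.4 and 93.5% for Tubb3 or Stmn2. With 1 library at E9.5, embryo-to-embryo variation at that stage was not measured.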
